A study of Mus musculus with 48 samples.

Results

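The subject is the step from 6 weeks (6W) to adulthood (6M) in the prefrontal cortex of mice that lack alkyladenine DNA glycosylase. It was taken as the 4 knockout prefrontal samples labelled 6M against the 4 labelled 6W, chosen by tissue, genotype and age, which is 8 of the 48 samples in the series. The series sequenced RNA from the hippocampus and prefrontal cortex of male Aag-/- (KO) and wild-type (WT) mice at postnatal day 5 (P5), at 6W and at 6M, with 4 samples in each group. The sample labels give 6 months for each 6M sample, while the design text of the series gives adults of 4 to 6 months. Whether animals of different age share that group is thus not known. The labels give 4 animals per time point, and strain and the design of the Aag allele are not given in the sources used here. Groups used beside the KO prefrontal samples were WT prefrontal cortex at 6W and 6M, KO hippocampus at 6W and 6M, and KO prefrontal cortex at P5. The question was which transcripts still change in the knockout after the cortex has matured.

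Alkyladenine DNA glycosylase, made from the gene Mpg, removes alkylated bases from DNA and so begins base excision repair. Between weaning and young adulthood the rodent prefrontal cortex continues to myelinate, prunes synapses and builds up the extracellular matrix that surrounds mature neurons. New oligodendrocytes continue to form from precursors at a falling rate during this period.

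The libraries were of similar size apart from 1. Total counts ran from 22094372 to 47343993 in the 8 samples, and from 21615824 to 47343993 in the whole series, with KO 6M replicate 4 the deepest. Mitochondrially encoded transcripts took 14.5% to 17.6% of the counts at 6W and 19.6% to 20.8% at 6M, and these ranges do not overlap. In WT prefrontal cortex the ranges were 15.9% to 21.2% at 6W and 17.8% to 21.4% at 6M. These overlap each other, and the WT 6W range spans that of KO at 6M. Markers of cortical excitatory neurons, which pack the tissue named in the labels, were abundant, with a summed level over 8 genes of 5136 to 6967 CPM (the count scaled by library size and composition) at 6W and 4436 to 5352 CPM at 6M. Markers of striatal medium spiny neurons, which belong to a neighbouring region, were uneven. Their sum over 12 genes was 262, 283, 1224 and 750 CPM in 6W replicates 1 to 4 and 293, 543, 874 and 336 CPM in 6M replicates 1 to 4. Olfactory bulb markers, 7 genes, summed to 167, 97.6, 172 and 131 CPM at 6W and to 286, 152, 163 and 227 CPM at 6M. Of both lists, only the olfactory marker Tbx21 was at 0 in any of the 8 samples (6W replicate 2 and 6M replicate 3), and the part that these uneven markers play in the results below was tested only through the added fits named with the call counts. In bulk tissue such as this, fewer cells of a type and less RNA per cell cannot be told apart.

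**Figure D1:**
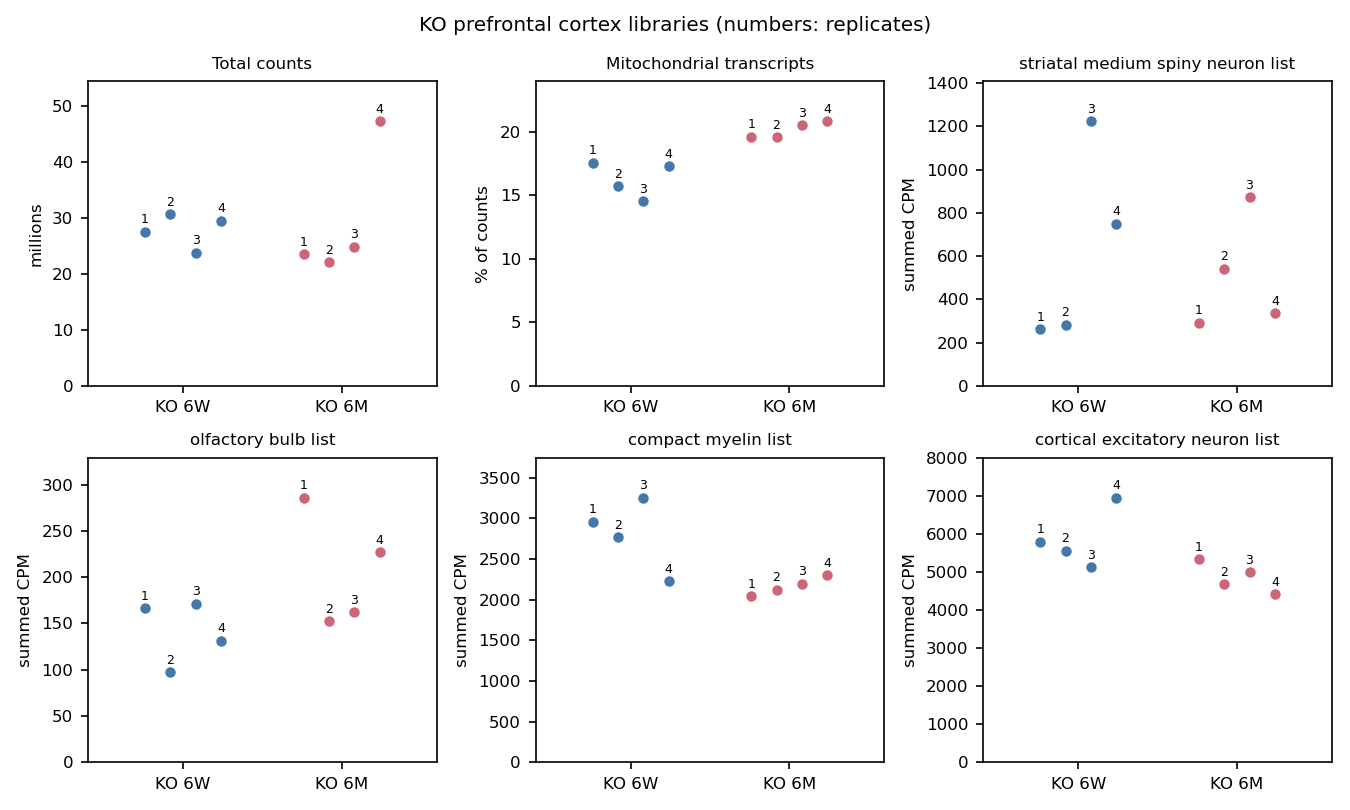
Each point is 1 KO prefrontal library, labelled with its replicate number, at 6W (blue) and 6M (red), for total counts, the percentage of mitochondrial counts and the summed CPM of 4 marker lists. The mitochondrial percentage is higher in every 6M library, from 19.6 to 20.8, and the striatal sum is highest in replicate 3 of each age (1224 and 874 CPM).

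As a check of the genotype labels, the level of Mpg was looked at. It stood at 2.51, 1.51, 1.61 and 1.80 CPM in the KO samples at 6W and at 1.39, 1.58, 2.54 and 1.94 CPM at 6M, against means of 5.44 ± 0.452 (SD, n = 4) and 5.26 ± 0.262 CPM (SD, n = 4) in WT at the same ages. Its KO log2 fold change from 6W to 6M was 0.011 (SE 0.18, adjusted p = 0.99 by edgeR's quasi-likelihood test with Benjamini-Hochberg adjustment), and its sign turned under some of the other settings.

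Few genes were called after 6W in the KO prefrontal cortex. Of 18144 genes tested, 17 were called at an adjusted p under 0.05, which is 0.0937% of them. At 6M, 7 genes were higher (0.0386%) and 10 were lower (0.0551%). The genes that rose were Abca8a, Gm42756, AA414992, Hspa1a, Ly9, Cyp2e1 and Cast. Those that fell were 9630013A20Rik, Zfp41, Ctnnbip1, Aplnr, Marcksl1, Traf3, 0610040J01Rik, Prss35, Ncan and E130006D01Rik. In all 17 the 4 values at 6M lay outside the range of the 4 at 6W. Such a separation was found in 4.17% of all tested genes in the upward direction and 4.18% in the downward direction. At an unadjusted p under 0.05 there were 892 higher genes (4.92%) and 1122 lower ones (6.18%). That is 2014 genes in both directions together, against 860 (4.74%) for the same step in WT prefrontal cortex. The median log2 fold change over all tested genes was 0.00, with quartiles of -0.15 and 0.17. For scale, the earlier step from P5 to 6W in the same tissue and genotype called 11133 genes, or 61.4%. The early and late steps share the 6W samples.

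The number of calls turned on the samples and the fit. Leaving out 1 library gave 3, 8, 8 and 15 calls without 6W replicates 1 to 4 and 5, 2, 3 and 3 calls without 6M replicates 1 to 4. Without replicate 3 of both ages, the libraries of highest striatal marker sum, 5 genes were called, all of them among the 17. With the striatal marker level as a covariate 21 genes were called, including all 17, and with the olfactory marker level 14 were called, including 9 of the 17. Leaving out the mitochondrially encoded genes gave 17 calls, the same genes. DESeq2 called 130 genes and a fit of only the 8 samples called 81, with 16 and 13 of the 17 among them. Abca8a and Gm42756 were called without any 1 library, 9630013A20Rik in 4 of the 8 such fits, and each of the other 14 genes in at most 3 of them. Every one of the 17 kept its direction and an unadjusted p under 0.01 in each setting in which it was tested.

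**Figure D2:**
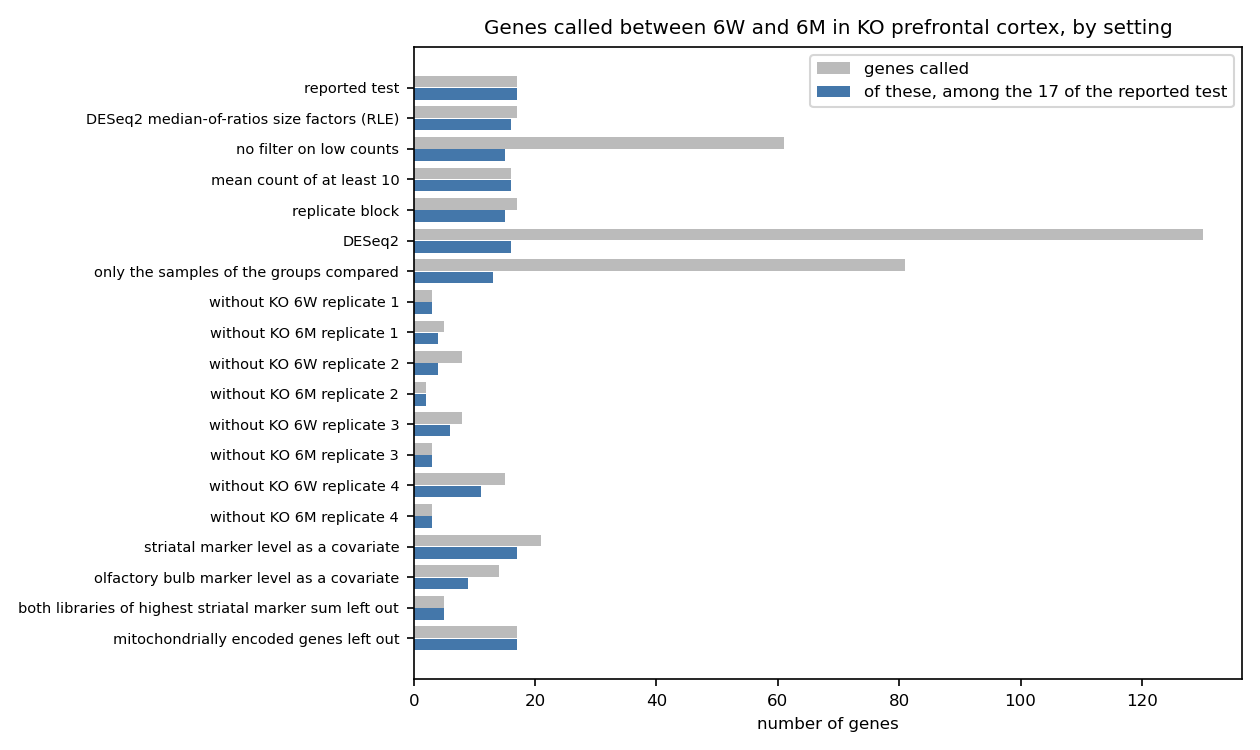
Grey bars give the number of genes called between 6W and 6M in KO prefrontal cortex under the reported test and each other setting, and blue bars the number of those that are among the 17 of the reported test. The count runs from 2 without 6M replicate 2 to 130 with DESeq2.

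The smallest p belonged to a lipid transporter gene. Abca8a (ENSMUSG00000041828, chromosome 11, 110025634 to 110095978, minus strand, GRCm38) encodes a transporter of the ABCA family, whose members move lipids across membranes. It stood at 2.96, 1.61, 2.65 and 3.09 CPM at 6W and at 9.26, 10.3, 8.94 and 8.00 CPM at 6M. All 4 samples at 6M were far above all 4 at 6W. The log2 fold change was 1.82 (SE 0.25, adjusted p = 0.00161), a 3.54-fold rise. The gene had fallen in the earlier step, from 4.59 ± 0.629 CPM (SD, n = 4) at P5, with a log2 fold change of -0.83. Abca8b, Abca9, Abca6 and Abca5, its relatives in the same chromosomal cluster, were looked at after the values of Abca8a were seen. None of these was called, and their log2 fold changes were 0.47, 0.26, 0.34 and 0.22. Abca8a shared 2.89% of its transcript's 31-base words with Abca8b, so few reads of the pair are interchangeable.

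Cyp2e1, a cytochrome P450 that oxidises ethanol and small organic molecules, is chiefly a liver enzyme and was close to the limit of counting. Its counts were 4, 5, 3 and 1 at 6W and 33, 17, 6 and 55 at 6M, or 0.036 to 0.164 CPM against 0.258 to 1.48 CPM. The fitted log2 fold change was 2.96 (SE 0.54, adjusted p = 0.0396). With 6M replicate 3 at 6 counts, the gap between the ages was narrow.

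Gm42756, 9630013A20Rik, AA414992 and E130006D01Rik have no annotated protein. Gm42756 (chromosome 9, 109537100 to 109552780, plus strand) is annotated as antisense to Fbxw15. It had 0.488, 0.526, 0.537 and 0.933 CPM at 6W and 2.73, 3.07, 3.05 and 3.01 CPM at 6M, a log2 fold change of 2.24 (SE 0.33, adjusted p = 0.00354). At P5 it was at 0.00799 ± 0.016 CPM (SD, n = 4), so its level was higher at each later age, and the rise from P5 to 6W was also called (adjusted p = 2.97e-08). Whether counting used the strand of the reads is not given in the sources used here, and without it reads of an antisense transcript and of its partner cannot be told apart.

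9630013A20Rik (chromosome 14, 84458639 to 84476424, minus strand) lies antisense to the protocadherin gene Pcdh17 and is used as a marker of newly formed oligodendrocytes. It rose in the earlier step and fell in the late one. From 0.746 ± 0.302 CPM (SD, n = 4) at P5 it reached 7.35, 6.34, 3.06 and 3.88 CPM at 6W and returned to 1.39, 0.814, 1.55 and 1.94 CPM at 6M. The late log2 fold change was -1.83 (SE 0.30, adjusted p = 0.0139), after 2.79 (SE 0.31) from P5 to 6W.

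AA414992 (chromosome 13, 68181294 to 68182869), a transcript whose coding status is still to be determined in the annotation, went from 0, 0, 0 and 1 counts at 6W to 11, 9, 13 and 21 counts at 6M. The ratio of the summed counts, adjusted for library size, was 53.2 with a 95% interval of 9.15 to 2140, which covers counting error only. The gene was thus close to absent from the counts before 6M and low at 6M, at 0.489 ± 0.0531 CPM (SD, n = 4). E130006D01Rik, a long intergenic noncoding RNA on chromosome 5, fell from 1.16, 1.12, 1.24 and 0.826 CPM to 0.537, 0.383, 0.387 and 0.497 CPM (log2 fold change -1.24, SE 0.25, adjusted p = 0.0457). It overlaps Gm16019 and Gm26897 on the opposite strand.

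**Figure D3:**
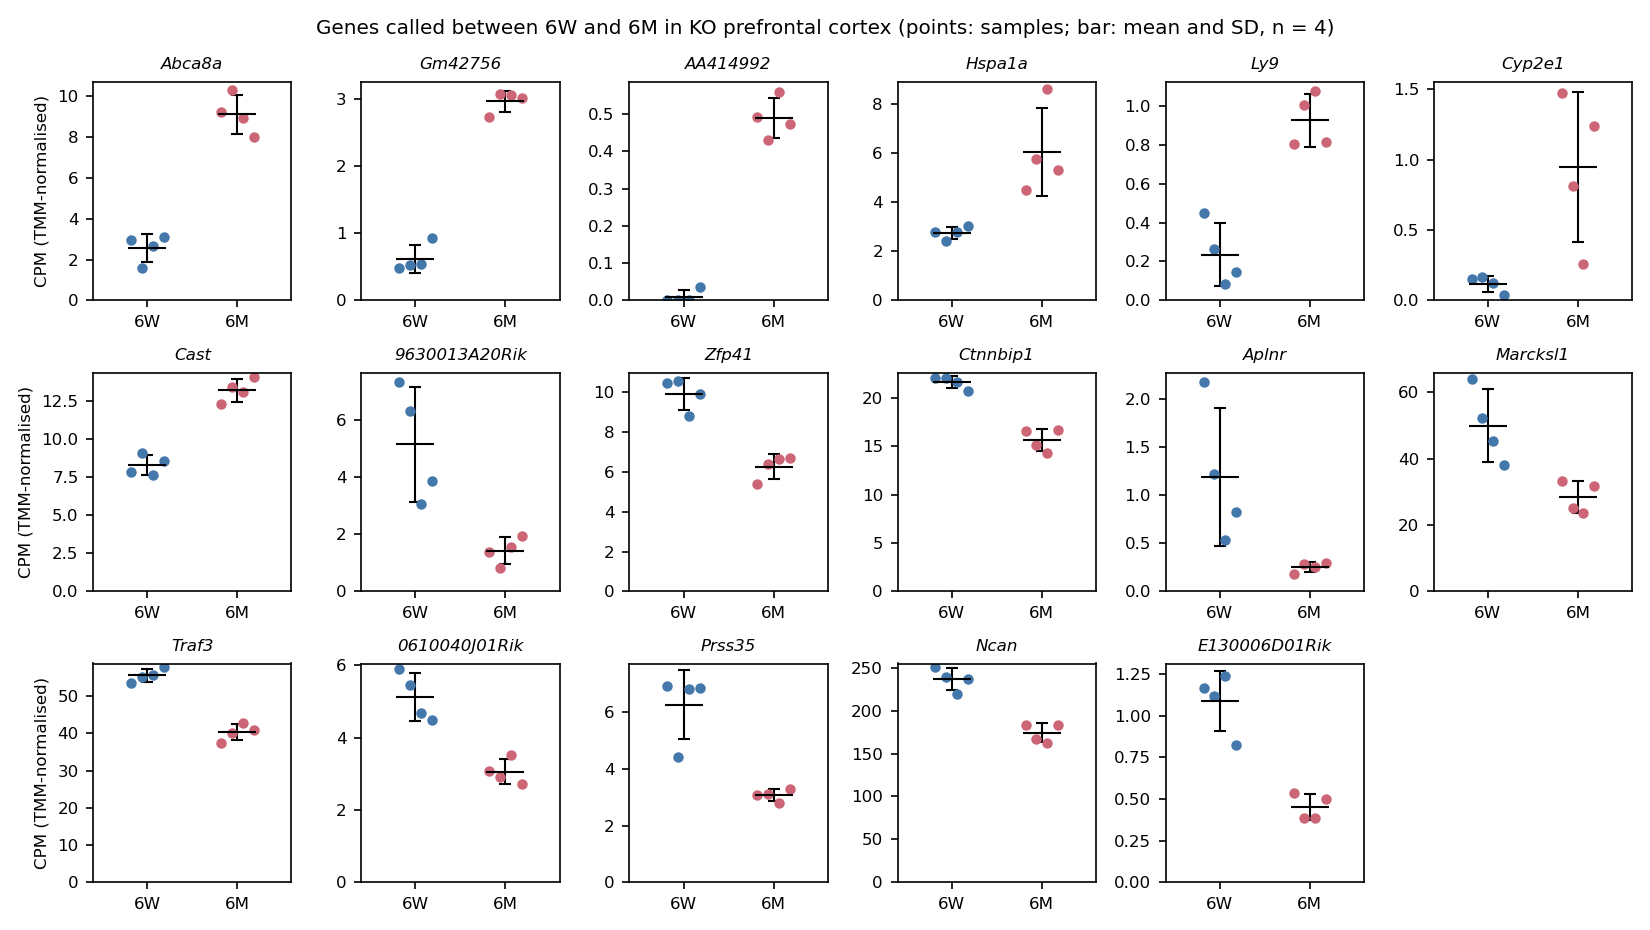
Each panel shows the TMM-normalised CPM of 1 of the 17 called genes, with points for the 4 samples at 6W (blue) and 6M (red) and bars for the mean and SD. In every panel the ranges of both ages are apart, as in Ncan, with 219 to 250 CPM at 6W and 163 to 184 CPM at 6M.

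Hspa1a and Hspa1b encode the inducible heat shock protein 70, a chaperone that refolds damaged proteins. Their promoter windows, from 250 bases before to 50 bases after the start site in RefSeq on GRCm38.p6, are shown because the pair is nearly identical and its counts are hard to separate. Hspa1a lies at chr17:34972107-34972406 and Hspa1b at chr17:34959189-34959488, both on the minus strand. Capitals mark the match to a heat shock element core, searched as GAANNTTC or TTCNNGAA, each of which reads the same on both strands.
Hspa1a: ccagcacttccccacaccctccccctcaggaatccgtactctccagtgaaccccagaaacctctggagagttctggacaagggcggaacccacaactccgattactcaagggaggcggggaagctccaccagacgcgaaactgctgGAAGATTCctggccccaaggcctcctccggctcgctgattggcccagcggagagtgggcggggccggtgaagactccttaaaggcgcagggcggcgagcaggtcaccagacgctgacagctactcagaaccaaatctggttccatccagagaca
Hspa1b: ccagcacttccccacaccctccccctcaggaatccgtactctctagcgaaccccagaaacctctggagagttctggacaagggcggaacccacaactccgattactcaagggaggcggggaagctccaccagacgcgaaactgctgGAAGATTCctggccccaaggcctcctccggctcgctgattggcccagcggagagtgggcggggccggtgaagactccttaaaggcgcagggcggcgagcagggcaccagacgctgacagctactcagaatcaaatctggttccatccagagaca
These windows differ at 4 of 300 positions (98.7% identical) and each holds 1 match, which begins at position -104 from the start site. Of 32851 promoter windows of this length, 4946 (15.1%) hold such a match.

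Hspa1a stood at 2.78, 2.43, 2.77 and 3.02 CPM at 6W and at 4.47, 5.75, 8.60 and 5.31 CPM at 6M, with 6M replicate 3 the highest. Its log2 fold change was 1.13 (SE 0.21, adjusted p = 0.0248). Without 6M replicate 3 the log2 fold change was 0.91 and the adjusted p was 0.113. Hspa1b showed a log2 fold change of 1.04 that was not called (adjusted p = 0.13), with 3.64, 3.61, 3.76 and 2.05 CPM against 5.99, 6.13, 7.82 and 6.85 CPM. Since 65.4% of the 31-base words of Hspa1a occur in other genes, mostly Hspa1b, the sum of both is the safer measure. The sum was 6.41, 6.04, 6.53 and 5.06 CPM at 6W and 10.5, 11.9, 16.4 and 12.2 CPM at 6M. Since neither gene overlapped between the ages, the sum could not overlap, so its separation adds nothing to theirs. In WT the sum was 8.72 ± 3.2 CPM (SD, n = 4) at 6W and 10.1 ± 0.904 CPM (SD, n = 4) at 6M.

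No other member of the heat shock list was called. Of 10 genes tested, 1 was called higher (0.0386% of all genes), 3 had an unadjusted p under 0.05 upward (4.92% of all genes) and 1 downward (6.18%), and the median log2 fold change was 0.07 against 0.00 over all genes. Hsph1, a co-chaperone of heat shock protein 70, stood at 206 to 236 CPM at 6W and at 181, 201, 340 and 192 CPM at 6M. The high library is the same 6M replicate 3 that had the highest Hspa1a.

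Cast and Prss35 both concern proteases and moved in opposite directions. Cast, which encodes calpastatin, the endogenous inhibitor of the calpain proteases, rose from 7.88, 9.10, 7.69 and 8.54 CPM to 12.3, 13.4, 13.1 and 14.1 CPM (log2 fold change 0.67, SE 0.14, adjusted p = 0.0457). It overlaps Erap1 on the opposite strand, with 11% of its words found in antisense. Prss35, a serine protease family gene, fell from 6.94, 4.44, 6.82 and 6.86 CPM to 3.09, 3.11, 2.79 and 3.30 CPM (log2 fold change -1.02, SE 0.20, adjusted p = 0.0457). Its 6W replicate 2 lay between the other 6W samples and the 6M group.

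A pair of immune signalling genes moved in opposite directions. Ly9, a lymphocyte receptor of the SLAM family, rose from 0.450, 0.263, 0.0827 and 0.144 CPM to 0.805, 1.01, 1.07 and 0.813 CPM (log2 fold change 1.94, SE 0.37, adjusted p = 0.0344). It overlaps Cd244a on the opposite strand, and the 6W values rest on 2 to 12 counts per sample. Traf3, an adaptor that restrains noncanonical NF-kB signalling and takes part in antiviral signalling, fell from 53.6, 55.1, 55.6 and 57.7 CPM to 37.5, 40.1, 42.8 and 40.7 CPM. Its log2 fold change was -0.46 (SE 0.09, adjusted p = 0.0248), with a spread within each age of 1.70 and 2.18 CPM (SD, n = 4 each). Traf3 was not called from P5 to 6W: it stood at 54.3 ± 6.97 CPM (SD, n = 4) at P5, and its log2 fold change was 0.03 (adjusted p = 0.767). In the list of 14 NF-kB and TRAF genes it was the only call (0.0551% of all genes were called lower), and Traf6 had a log2 fold change of 0.27 (adjusted p = 0.231).

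The remaining called genes all fell. Marcksl1, an actin-binding protein of growing neurites, was at 64.0, 52.1, 45.4 and 38.2 CPM at 6W and at 33.3, 25.1, 23.7 and 31.7 CPM at 6M. Its log2 fold change was -0.81 (SE 0.15, adjusted p = 0.0248), after -3.20 from P5 to 6W, when it came down from 458 ± 32.6 CPM (SD, n = 4). Aplnr, the receptor for the peptide apelin and a gene of developing blood vessels, was at 2.18, 1.22, 0.537 and 0.826 CPM at 6W and at 0.179, 0.287, 0.258 and 0.294 CPM at 6M. Its log2 fold change was -2.18 (SE 0.40, adjusted p = 0.0248), and at P5 it had been at 35.8 ± 1.86 CPM (SD, n = 4). Apln, which encodes the peptide and was looked at after Aplnr was seen, had a log2 fold change of -0.09 (adjusted p = 0.815).

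Ncan encodes neurocan, a chondroitin sulfate proteoglycan of the brain's extracellular matrix that is high in the young brain. It was at 250, 239, 219 and 237 CPM at 6W and at 184, 167, 163 and 184 CPM at 6M (log2 fold change -0.44, SE 0.09, adjusted p = 0.0457), after 591 ± 83.1 CPM (SD, n = 4) at P5. Of 10 tested genes of perineuronal nets and their matrix, Ncan was the only call (0.0551% of all genes were called lower), and the median log2 fold change was -0.01. Hapln2, a link protein found at nodes of Ranvier, had a log2 fold change of 0.94 (adjusted p = 0.155), with 2.41 to 3.27 CPM at 6W and 4.74 to 6.36 CPM at 6M. Ctnnbip1, an inhibitor of beta-catenin in Wnt signalling, had 20.8 to 22.1 CPM at 6W and 14.3 to 16.7 CPM at 6M (log2 fold change -0.46, adjusted p = 0.0248), and 25.1% of its words occur antisense in Gm13066. Zfp41, a zinc finger gene, had 8.80 to 10.5 CPM at 6W and 5.37 to 6.69 CPM at 6M (log2 fold change -0.66, adjusted p = 0.0248). The uncharacterised gene 0610040J01Rik had 4.49 to 5.89 CPM and 2.71 to 3.53 CPM at these ages (log2 fold change -0.75, adjusted p = 0.0396).

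The called genes were also read in the step from P5 to 6W, in which 31.2% of all tested genes were called lower and 30.2% higher. Of the 10 genes that fell late, 7 also fell in that step (Marcksl1, Aplnr, Ncan, Ctnnbip1, Zfp41, Prss35 and E130006D01Rik), 9630013A20Rik rose, and Traf3 and 0610040J01Rik were not called. Of the 7 that rose late, 3 had also risen early (Gm42756, Hspa1a and Cyp2e1), Abca8a had fallen, and the other 3 were not called. Both steps use the same 6W samples, so a high or low 6W group moves them in opposite directions.

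Below the threshold, the abundant genes of smallest p that were not called had adjusted p between 0.0518 and 0.0898. Il33, an alarmin cytokine held in the nucleus of glia, was at 20.6, 17.9, 33.2 and 22.3 CPM at 6W and at 45.5, 50.6, 51.8 and 56.1 CPM at 6M, with a log2 fold change of 1.12 (SE 0.23, adjusted p = 0.0518). Pcdhga6, a clustered protocadherin, Phactr2, Atpaf1, an assembly factor of the mitochondrial ATP synthase, and Bbx had log2 fold changes of 0.64, 0.56, 0.38 and 0.45. In the other direction, Myl4, a myosin light chain, and Hist3h2ba, a histone gene, had log2 fold changes of -0.87 and -0.69 (adjusted p = 0.0518 for each). Sdk1, a synaptic adhesion molecule, Trp53inp2 and Zfp580 had -0.74, -0.41 and -0.74. Among genes of high expression, the largest differences at an unadjusted p under 0.01 were those of Il33, Marcksl1, C230004F18Rik (log2 fold change 0.75, adjusted p = 0.207) and Ephb6, an Eph receptor (log2 fold change -0.74, adjusted p = 0.113).

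Genes of immature neurons had lower values at 6M as a list. All 12 tested members had a log2 fold change below 0, the median was -0.39 against 0.00 over all genes, 7 had an unadjusted p under 0.05 downward (6.18% of all genes did), and Marcksl1 was called (0.0551% of all genes were called lower). Dpysl3, a cytoskeletal protein of growing axons, was at 64.1, 59.7, 63.1 and 48.3 CPM at 6W and at 40.4, 41.2, 40.2 and 39.0 CPM at 6M (log2 fold change -0.55, adjusted p = 0.113). Igfbpl1, Cd24a, Sox11 and Sox4 had log2 fold changes of -1.02, -0.79, -0.46 and -0.43, while Dcx, doublecortin of migrating neurons, had -0.06 (adjusted p = 0.938). In WT the same list had a median of -0.27. Cell cycle genes had a median of -0.41 over 12 genes, with none called and 4 under an unadjusted p of 0.05 downward (6.18% of all genes), and a WT median of 0.09. Mki67, a marker of dividing cells, had 8.03, 6.18, 3.93 and 4.02 CPM at 6W and 3.22, 2.35, 4.00 and 3.59 CPM at 6M, so its ages overlapped. Its log2 fold change was -0.74 in KO and -0.77 in WT. Prc1 and Pimreg, 2 mitotic genes outside the list that were noticed among the small p-values, had log2 fold changes of -1.26 and -2.41 (adjusted p = 0.106 and 0.0993), with Pimreg at 1, 1, 1 and 5 counts at 6M. In WT they had -1.03 and -0.63.

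The oligodendrocyte lineage was described at 3 stages. Among 10 precursor and committed-precursor genes, 3 had an unadjusted p under 0.05 downward (6.18% of all genes), none was called, and the median was -0.26. Gpr17, a receptor of precursors that are about to differentiate, was at 38.7, 32.8, 27.6 and 38.2 CPM at 6W and at 16.9, 17.9, 25.2 and 18.6 CPM at 6M (log2 fold change -0.80, SE 0.18, adjusted p = 0.0826), with no overlap. Enpp6, an early differentiation gene, had a log2 fold change of -0.65 (adjusted p = 0.4). Of 10 genes of newly formed oligodendrocytes 9630013A20Rik was the only call (0.0551% of all genes were called lower), and the median was -0.01. Of 15 compact myelin genes none was called and the median was -0.38. An unadjusted p under 0.05 downward was found in 5 of them (6.18% of all genes), and in 7 the values at 6M lay wholly below those at 6W (4.18% of all genes). Cnp, a myelin phosphodiesterase, was at 88.4, 84.0, 96.3 and 79.6 CPM at 6W and at 62.8, 59.7, 60.3 and 59.7 CPM at 6M (log2 fold change -0.52, adjusted p = 0.175). Mog, Cldn11 and Mbp had -0.63, -0.67 and -0.30, and Ermn, a late cytoskeletal gene of oligodendrocytes, had 0.50 (adjusted p = 0.45). The summed level of the myelin list was 2230 to 3252 CPM at 6W and 2039 to 2297 CPM at 6M, and its median in WT was -0.43.

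The lists of cortical excitatory neurons, synapses, neuropeptides and cholesterol synthesis held no called gene. All 8 markers of cortical excitatory neurons had log2 fold changes below 0, with a median of -0.28 (WT -0.08) and 3 under an unadjusted p of 0.05, against 6.18% of all genes in that direction. Nrgn, neurogranin of dendritic spines, had 709, 572, 795 and 901 CPM at 6W and 528, 426, 582 and 430 CPM at 6M (log2 fold change -0.60, adjusted p = 0.211), and 1 value overlapped. Of 16 synaptic genes 3 had an unadjusted p under 0.05 downward (6.18% of all genes): Dlg4, the postsynaptic scaffold PSD-95, Syp, synaptophysin, and Stx1a, with log2 fold changes of -0.43, -0.32 and -0.38. The striatal list, measured as a check of the dissection, also had all 12 members below 0 with a median of -0.41, though no member had an unadjusted p under 0.05. All 7 olfactory genes were above 0 with a median of 1.08, again with no member under that p. The part of uneven dissection in these lists was not tested. Of 16 neuropeptide genes 4 had an unadjusted p under 0.05 downward (6.18% of all genes), among them Cort and Sst of somatostatin-class interneurons (log2 fold changes -0.65 and -0.43). In that list 10 genes were below 0 and 6 above. The interneuron list of 12 genes, which also holds Sst, had 6 above and 6 below 0, a median of -0.03 and no call. In it 3 genes had an unadjusted p under 0.05 downward (6.18% of all genes) and 0 upward (4.92%). Of 16 cholesterol synthesis genes 3 had an unadjusted p under 0.05 downward, against the same 6.18%, with Dhcr7 lowest in p (log2 fold change -0.43, adjusted p = 0.129).

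Of the 44 lists, that of genes known to rise in the ageing brain had the most members with an upward unadjusted p under 0.05. Of 11 tested of 14, none was called, 5 passed that limit upward (4.92% of all genes) and 0 downward (6.18% of all genes), and the median was 0.51 (WT 0.27). These were Il33, the protocadherin Pcdhb9, the nuclear noncoding RNA Neat1, the lipocalin Apod and the acute-phase lipocalin Lcn2. Apod was at 144, 108, 123 and 104 CPM at 6W and at 169, 191, 186 and 164 CPM at 6M (log2 fold change 0.57, adjusted p = 0.299). Pcdhb9 was at 9.91 to 10.9 CPM at 6W and at 13.9 to 16.1 CPM at 6M (log2 fold change 0.51, adjusted p = 0.129). Lcn2 rested on 1 library, since 6M replicate 3 had 34.6 CPM and the other 6M samples 0.0895 to 0.192 CPM, against 0.108 to 1.49 CPM at 6W. C4b, complement component 4, had a log2 fold change of 0.80 with no overlap between the ages (adjusted p = 0.492). Mitochondrially encoded genes had a median of 0.29 over 10 tested genes, with mt-Nd2 at 0.51 (adjusted p = 0.419), and a median of -0.07 in WT. None was called, and 2 had an unadjusted p under 0.05 upward (4.92% of all genes) and 0 downward (6.18%). In 3 the values at 6M lay wholly above those at 6W (4.17% of all genes).

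Base excision repair genes, the pathway that the missing enzyme belongs to, were spread evenly about 0. The median over 26 genes was 0.00, with 13 above and 13 below 0, none called, 1 with an unadjusted p under 0.05 upward (Aptx, 0.20) and 1 downward, near the shares of all genes (4.92% and 6.18%). The latter was Parp1, which senses DNA strand breaks, at 37.5, 44.3, 41.5 and 38.5 CPM at 6W and at 32.2, 34.8, 34.6 and 34.7 CPM at 6M (log2 fold change -0.25, adjusted p = 0.307). The 6 genes of aldehyde and direct alkylation repair had a median of 0.06 and no member under that p. Lists for microglia (10 genes) and astrocytes (10 genes) had medians of 0.04 and 0.02 and no member under that p either.

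**Figure D4:**
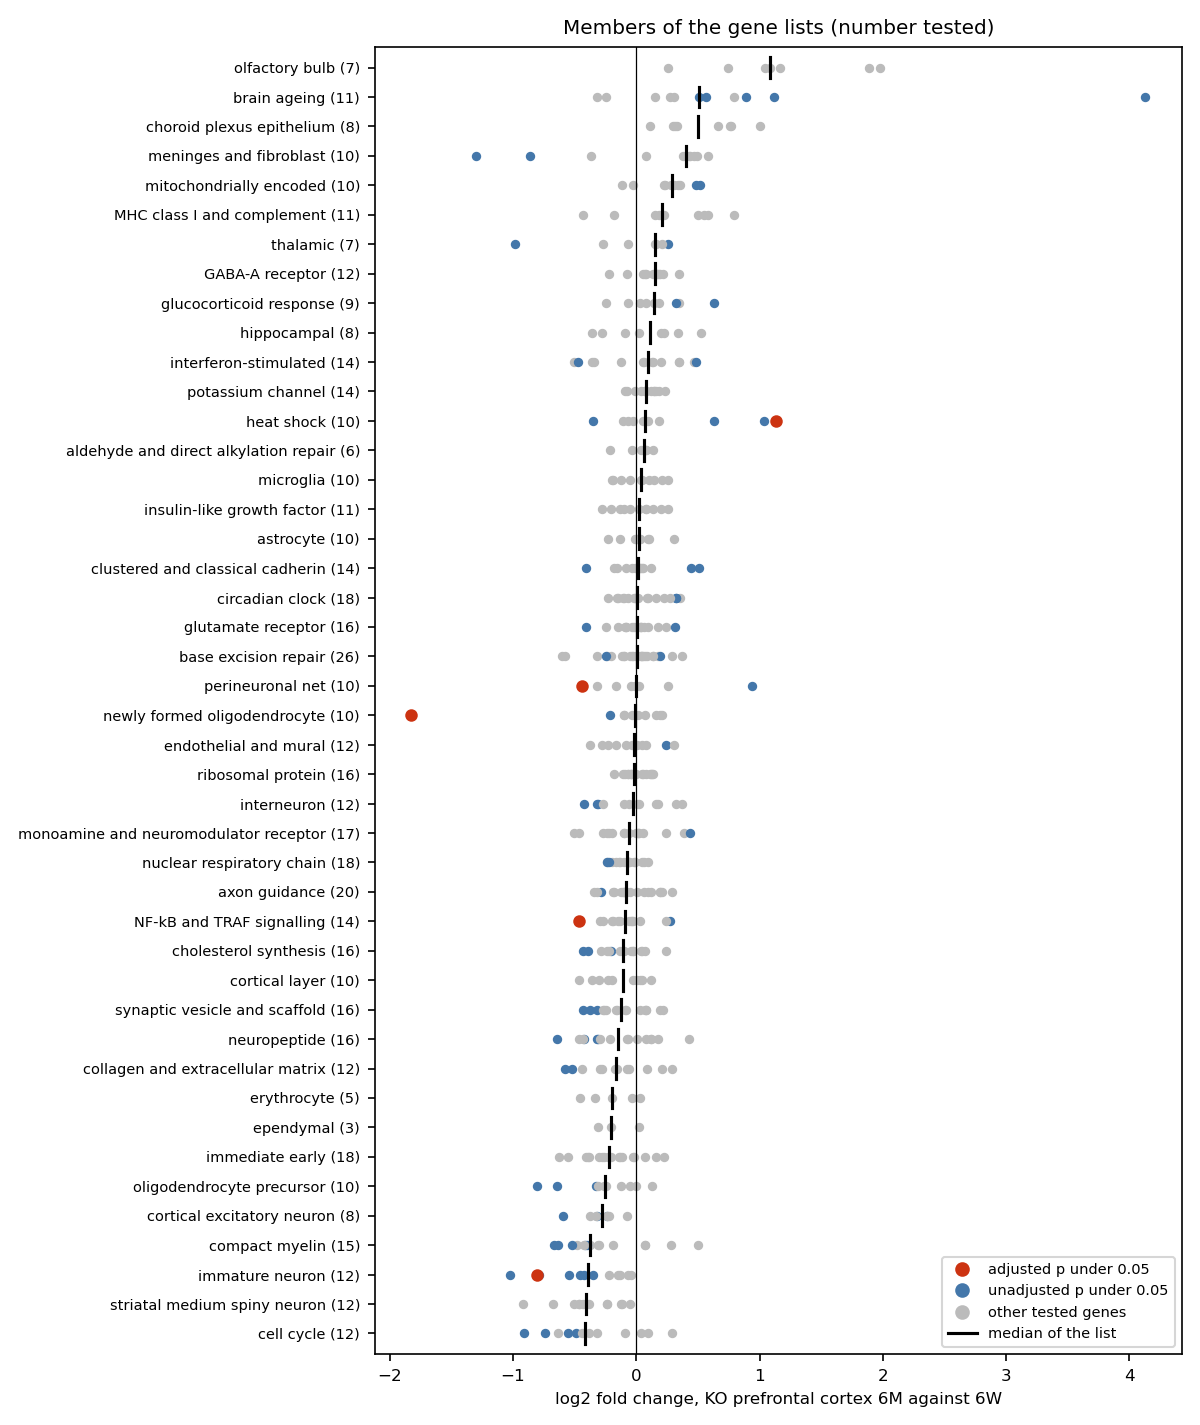
Each point is 1 tested gene of a list, placed at its log2 fold change from 6W to 6M in KO prefrontal cortex, with the list's median as a black bar and the number tested in parentheses. Red points are the called genes, which are Hspa1a, Ncan, 9630013A20Rik, Traf3 and Marcksl1, and blue points have an unadjusted p under 0.05. All 12 immature neuron genes and all 12 striatal genes lie left of 0.

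The same step was then set beside WT prefrontal cortex. WT called 7 genes (0.0386%), and 6 of the 17 KO genes were called there too: Abca8a, Gm42756, 9630013A20Rik, AA414992, Traf3 and Cyp2e1. All 17 had the same sign in WT, and 12 had an unadjusted p under 0.05 there, against 4.74% of all tested genes in both directions together. Both steps were tested in the same fit with a shared estimate of each gene's spread. Genes chosen for a small KO p also tend to have a small shared spread, so the WT counts are not independent of that choice. The log2 fold changes in KO and WT were 1.82 and 1.68 for Abca8a, 2.24 and 2.37 for Gm42756, -1.83 and -1.89 for 9630013A20Rik, and -0.46 and -0.49 for Traf3. AA414992 had 0 counts in all 4 WT samples at 6W and 16, 11, 4 and 6 counts at 6M. The test of the difference between the genotypes' steps called 0 of 18144 genes (0%) with edgeR's quasi-likelihood test and 0 with DESeq2, and the same tests gave 497 and 709 genes below 0.05 before adjustment.

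Of the 17 genes, 6 had an unadjusted p under 0.05 for that difference, against 2.74% of all genes, and the adjusted p was 0.9999 in each case. E130006D01Rik was at 0.789 ± 0.116 and 0.787 ± 0.244 CPM (SD, n = 4 each) in WT at 6W and 6M, against 1.09 ± 0.181 and 0.451 ± 0.0778 CPM (SD, n = 4 each) in KO. Hspa1a had a WT log2 fold change of 0.16 (SE 0.21), with 5.56, 4.96, 3.44 and 2.58 CPM at 6W and 3.98 to 5.26 CPM at 6M. The WT 6W samples of Hspa1a thus overlapped both the KO 6W range and the lower end of the KO 6M range. Prss35 was at 4.27 ± 0.749 and 3.98 ± 0.247 CPM (SD, n = 4 each) in WT, between the KO values of 6.26 ± 1.22 and 3.07 ± 0.209 CPM (SD, n = 4 each). The others were Ctnnbip1, Zfp41 and Cast, with WT log2 fold changes of -0.14, -0.27 and 0.26. In all 6 the WT log2 fold change was nearer to 0, but KO genes were chosen for a large KO step, so this is a description only.

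In the hippocampus of the same genotype the step called 80 of 17786 genes (0.45%), against 17 in prefrontal cortex. The order of these counts turned with the fit: DESeq2 called 119 in hippocampus and 130 in prefrontal cortex, and fits of only the compared samples called 32 and 81. Of the 17 prefrontal genes 16 were tested there, 15 had the same sign and 4 were called: Abca8a, Gm42756, 9630013A20Rik and Aplnr. Their hippocampal log2 fold changes were 0.99, 2.19, -2.34 and -1.86. Abca8a was at 8.85 CPM in hippocampus at 6W and at 17.6 CPM at 6M (means of 4 samples) on the scale of the hippocampal libraries. Il33 and Gpr17, which missed the threshold in prefrontal cortex, were called in hippocampus with log2 fold changes of 0.96 and -1.07 (adjusted p = 0.000155 for each). Prss35 had the opposite sign there, 0.06. The test of the difference between the tissues' steps called 0 of 18849 genes (0%) and DESeq2 also called 0, and before adjustment 1150 and 1353 genes lay below 0.05. The smallest adjusted p from edgeR was 0.323. Among the 17 genes, 6 had an unadjusted p under 0.05 for this difference, against 6.1% of all genes, but they were chosen on the same KO prefrontal samples.

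**Figure D5:**
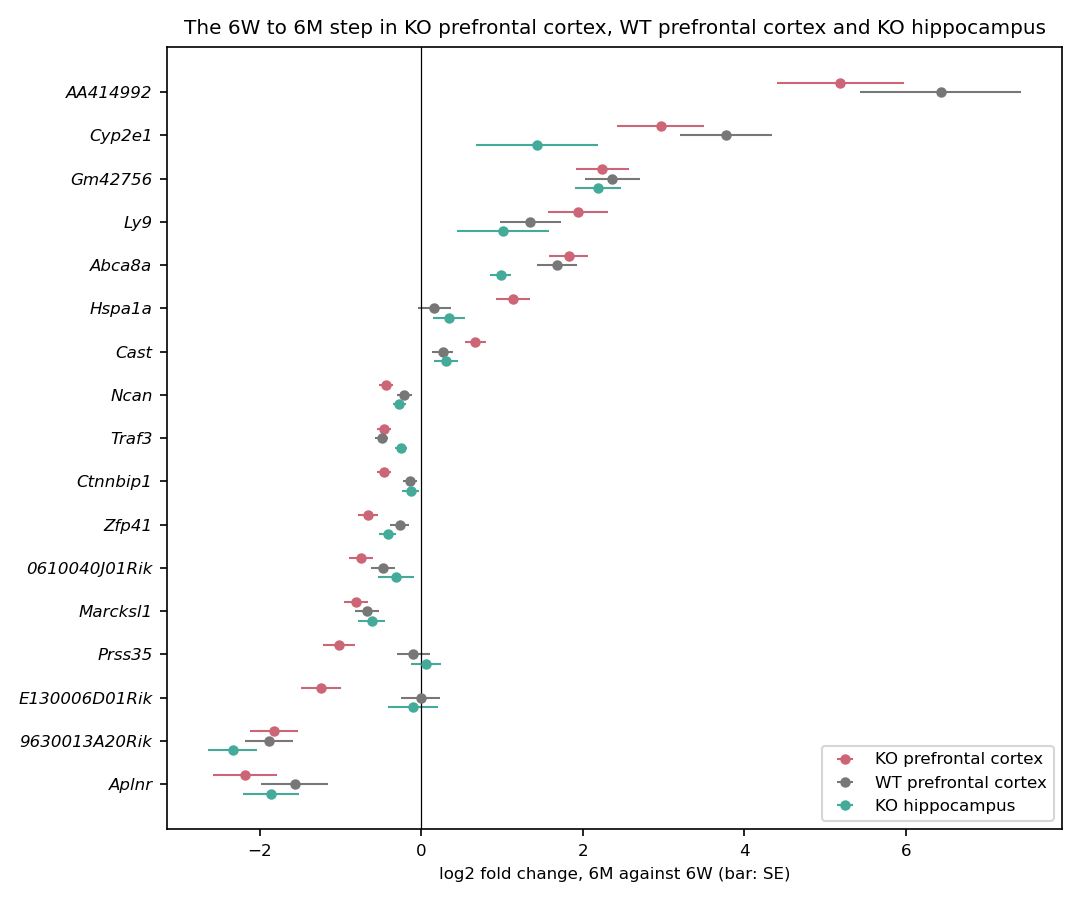
Points give the log2 fold change from 6W to 6M of each of the 17 called genes in KO prefrontal cortex (red), WT prefrontal cortex (grey) and KO hippocampus (green), with SE bars. All 17 have the same sign in both genotypes of prefrontal cortex; the fitted value of AA414992 rests on 1 count at 6W in KO and 0 in WT, and this gene was not tested in hippocampus.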

How the data were processed

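Poly(A) RNA was sequenced from stranded libraries (SENSE kit) as single-end reads of 75 bases, per the labels. The authors deposited whole-number read counts per Ensembl gene, with no normalization. Per the submitters' processing notes, bcl2fastq 2.20.0.422, STAR 2.4.0, HTSeq and GRCm38 were used, with no role or order given. Symbols were found for 54723 of 54838 IDs, and positions and overlaps are those of GENCODE M21 on GRCm38. Columns were matched to samples by title.

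Counts of the 24 prefrontal samples (6 groups of 4, 18 residual degrees of freedom) were fitted by the quasi-likelihood functions of edgeR 4.0.16 (R 4.3.3), with TMM normalization and filterByExpr. P-values were adjusted by Benjamini-Hochberg over all genes tested, and a gene is called at an adjusted p under 0.05. The tissue difference came from a fit of all 48 samples. SE is the log2 fold change divided by the root of F. CPM are TMM-normalised. The code was tested on simulated data. A limit of 3 counts corresponded to 0.0678 to 0.144 CPM in the 8 libraries. Intervals and this limit cover counting error only. Replicate libraries differed beyond sampling noise (chi-square per degree of freedom 7.95 to 46.2 over 12 pairs). The p-values rest on a spread estimated within groups over all samples of each fit, not over the 8 KO prefrontal libraries alone.

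The members and the 44 gene lists (516 of 528 genes tested) were chosen with earlier results of these data known. Genes named are all called genes, the 5 of smallest p in each direction that were not called and had a mean log2 CPM of at least 3, the called members and leading member of lists, Mpg, and the 4 largest changes with an unadjusted p under 0.01 and a mean log2 CPM of at least 5. Other genes named from a list are examples with their values, and genes outside the lists were chosen after their values were seen. Alternatives were DESeq2 1.42.0, its size factors within edgeR, no filter on low counts, a mean count minimum of 10, only the samples compared, a replicate block, each library left out, and 4 added after seeing the data: striatal or olfactory marker levels as covariates, replicate 3 of both ages left out, and mitochondrial genes left out. Replicate numbers were not used to pair samples.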

Additional observations from a re-analysis of the deposited data

Results flagged for a closer look

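In 12 of 152 sets of 4 values examined, 1 sample lay far from the other 3 by Dixon's criterion. Chance flags about 1 in 20 groups, or 7.6 of 152. Each value is in CPM. At 6W, Gm42756 stood at 0.933 in replicate 4 (others 0.488 to 0.537), AA414992 at 0.0359 in replicate 4 (others 0, and the value is 1 count), Prss35 at 4.44 in replicate 2 (others 6.82 to 6.94), Cdhr1 at 47.9 in replicate 1 (others 16.2 to 19.5) and Pimreg at 0.638 in replicate 1 (others 0.296 to 0.331). At 6M, replicate 3 was high for the prolactin receptor gene Prlr at 4.51 (others 0.746 to 1.39) and for the complement gene C1qb at 73.7 (others 36.5 to 42.4). Replicate 1 at 6M had 43.2 for the haemoglobin gene Hba-a2 (others 22.0 to 25.6) and 32.2 for Parp1 (others 34.6 to 34.8). Replicate 2 at 6M had 31.7 for the muscarinic receptor gene Chrm2 (others 41.1 to 42.7). Replicate 4 at 6M had 2.76 for Cort (others 2.45 to 2.49) and 0.113 for Pimreg (others 0.0430 to 0.0479, which is 1 count each).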

How the results depend on the processing

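The 17 calls of the KO prefrontal step became 61 with no filter on low counts, 130 with DESeq2 and 81 with only the 8 samples fitted, ranged from 2 to 15 with 1 library left out, and were 5 without replicate 3 of both ages. The difference between genotypes called 1 gene with no filter. The difference between tissues called 2 with no filter and 1 with only the samples compared. The KO hippocampal step, 80 calls, gave 339 with no filter, 32 with only the samples compared and 38 to 85 with 1 library left out. The WT prefrontal step, 7 calls, gave 29 with DESeq2, 23 with no filter, 3 with a replicate block and 2 to 7 with 1 library left out. The cause of these shifts was not tested. Same-numbered samples of 6W and 6M had correlations of deviations across genes of 0.01, 0.35, 0.27 and -0.46, and 1 of 4 samples correlated best with its own number, so the numbers were not taken as pairs. With the replicate block the KO prefrontal step called 17 genes, 15 of them among the reported 17, the hippocampal step 89 and the P5 to 6W step 11127, and both differences 0. The labels do not say that a number marks an animal. A block joining samples of the same genotype, age and number across tissues also gave 0 for the difference between tissues. Uncalled genes changed sign in 10 cases. Without replicate 3 of both ages the log2 fold change of C1qb was -0.036, that of Prlr -0.085 and that of Mpg -0.22. With 1 library left out it ran from -0.037 to 0.37 for C1qb, from -0.15 to 1.06 for Prlr and from -0.16 to 0.19 for Mpg. Of the other comparisons of single genes, 1163 kept their side and direction, 129 lost the threshold and 62 gained it. Genes with few counts at 6W, such as AA414992, Cyp2e1 and Ly9, are limited by depth.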
